A study of Mus musculus with 8 samples.

Results

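Sparse CpGs far from dense cores are the lonely cytosines of a methylation survey: few other measured cytosines lie beside them, and no dense stretch lies near. They were chosen by position alone, and no methylation value entered the choice. For each listed autosomal cytosine, the listed cytosines within 100 bp on either side were counted, itself included. A cytosine with a count of at least 21 was a dense core. A cytosine with a count of at most 4 and no core cytosine within 4000 bp was sparse and far. The rule took 426184 of 2298998 autosomal cytosines, or 18.5%, out of 2361680 cytosines listed in all. They made up 244289 CpG positions, of which 181895 were listed on both strands and 62394 on 1 strand. The median distance to the nearest dense core was 60880 bp, with quartiles of 22404 and 171290 bp, and the largest was 5610105 bp.

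The cells were NIH3T3, an immortalised mouse embryo fibroblast line. Stable clones carried p3xFLAG-CMV-10 with 14-3-3ε, a protein that binds phosphorylated partners, driven by the CMV promoter, or the control vector, and all were kept in 10% serum with G418 selection at 800 µg/mL. The 14-3-3ε clones 10 and 12 and the control clones 2 and 3 gave DNA for reduced representation bisulfite sequencing (RRBS) and RNA for RNA-seq, 8 samples in 4 groups of 2. Each clone grew from a single colony, so a difference between groups of 2 clones cannot be told apart from a difference between the founder cells.

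Only the authors' own comparison was analysed here, so the spread between clones is not visible and coverage is unknown. Differences are in percentage points of methylation, 14-3-3ε clones minus control clones. The files do not state their direction: positive was read as higher in 14-3-3ε clones, and every direction below rests on that reading. Ywhae, the mouse gene of 14-3-3ε, did not check it, with a log2 fold change of -0.03 (SE 0.18, adjusted p = 0.942 in DESeq2's test) in the authors' deposited table. Cytosines are not replicates, and classes of cytosines are set side by side as descriptions with no test. The fibroblast label was checked on markers: 16 of 16 fibroblast markers had mean normalized counts between 1914 and 424650. Krt5 of epithelium, Kdr of endothelium and Myog of muscle were listed at 0, and among the other markers of those tissues and of the nervous system only Map2, at 781, was above 58.9.

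In mammals the methyl group sits mostly on cytosines followed by guanine. Dense CpG islands are usually unmethylated, while isolated CpGs in introns and between genes are mostly methylated. Dnmt1 copies methylation onto the new strand after replication, and in many cultured and tumour cells long, gene-poor, late-replicating domains lose methylation first. RRBS cuts DNA with MspI, whose site is CCGG, so a sparse CpG is read mostly because it lies in or beside such a site.

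The promoters of 6 genes show what such a place looks like in sequence, since a promoter window was the only stretch whose letters could be read beside the values. They were picked after the values were seen, for holding called cytosines. Postn, Tfeb and Anxa8 are the 3 genes with a called sparse cytosine in the window and a called change in RNA. Here RNA was matched by symbol alone, without synonyms, so a renamed gene would be missed. The windows of Lmcd1, Chrnb4 and Asprv1 each held 2 called cytosines. They are part of 16 windows with at least 2, picked for genes with a known role. Each line gives the 300 bases from 250 before to 50 after an annotated start of the gene, 5′ to 3′ on the gene's strand, from RefSeq's GRCm38.p6. Capitals mark the CG of the listed sparse, far cytosines. Other CGs are in lower case, whether listed or not. All 4 listed cytosines were sparse and far in Postn and in Asprv1, against 2 of 4 in Tfeb and 4 of 6 in Anxa8. In Lmcd1 and Chrnb4 only 4 of 14 were. These 2 windows held 12 and 14 CpGs, against a median of 6 in windows with a sparse, far cytosine.
Postn, chr3:54359017-54359316, plus strand: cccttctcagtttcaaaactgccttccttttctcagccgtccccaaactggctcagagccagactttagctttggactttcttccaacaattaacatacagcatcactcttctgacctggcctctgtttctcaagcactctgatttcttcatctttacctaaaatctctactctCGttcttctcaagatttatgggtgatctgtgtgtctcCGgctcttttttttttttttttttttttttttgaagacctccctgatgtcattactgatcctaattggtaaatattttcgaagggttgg
Tfeb, chr17:47785494-47785793, plus strand: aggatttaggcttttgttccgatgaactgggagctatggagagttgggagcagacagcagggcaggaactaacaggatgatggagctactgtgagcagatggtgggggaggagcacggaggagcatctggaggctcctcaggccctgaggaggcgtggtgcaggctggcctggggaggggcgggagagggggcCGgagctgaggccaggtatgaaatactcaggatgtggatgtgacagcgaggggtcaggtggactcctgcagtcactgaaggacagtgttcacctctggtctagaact
Anxa8, chr14:34085729-34086028, plus strand: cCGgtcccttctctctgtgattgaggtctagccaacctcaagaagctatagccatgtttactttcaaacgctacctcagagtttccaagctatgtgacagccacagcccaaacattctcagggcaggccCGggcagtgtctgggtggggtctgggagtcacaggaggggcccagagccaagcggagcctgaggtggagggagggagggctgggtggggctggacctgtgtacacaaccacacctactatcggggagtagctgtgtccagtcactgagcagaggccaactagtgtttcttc
Lmcd1, chr6:112273508-112273807, plus strand: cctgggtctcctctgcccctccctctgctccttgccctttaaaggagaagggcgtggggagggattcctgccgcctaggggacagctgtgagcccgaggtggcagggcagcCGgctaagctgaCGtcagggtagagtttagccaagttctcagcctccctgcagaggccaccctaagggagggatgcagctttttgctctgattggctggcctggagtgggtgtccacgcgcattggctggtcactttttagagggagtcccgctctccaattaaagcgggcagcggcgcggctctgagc
Chrnb4, chr9:55048495-55048794, minus strand: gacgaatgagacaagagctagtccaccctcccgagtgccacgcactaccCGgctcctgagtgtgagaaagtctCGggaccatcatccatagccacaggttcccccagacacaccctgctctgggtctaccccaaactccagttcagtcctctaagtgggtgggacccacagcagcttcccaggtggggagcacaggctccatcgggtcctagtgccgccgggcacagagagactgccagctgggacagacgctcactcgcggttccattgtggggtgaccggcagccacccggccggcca
Asprv1, chr6:86627924-86628223, plus strand: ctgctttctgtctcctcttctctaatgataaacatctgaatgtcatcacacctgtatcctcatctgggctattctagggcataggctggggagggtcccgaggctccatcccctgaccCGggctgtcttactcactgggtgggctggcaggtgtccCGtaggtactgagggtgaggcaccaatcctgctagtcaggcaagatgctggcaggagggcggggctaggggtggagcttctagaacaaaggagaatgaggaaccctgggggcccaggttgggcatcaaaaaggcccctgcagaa

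Postn encodes periostin, a secreted matrix protein of fibroblasts. In the authors' deposited table, the CG 76 bases before its start stood at -15.6 points on the plus strand (q = 0.475) and was called lower on the minus strand, at -22.0 points (q = 0.00394). The CCGG nearer to the start, 39 bases before it, stood at -4.02 and -7.79 points and was not called on either strand. Postn RNA was higher in 14-3-3ε clones by 1.67 on the log2 scale (SE 0.39, DESeq2 adjusted p = 0.000679) in the authors' deposited table. Tfeb, a transcription factor for lysosome genes, has the start of its window inside the gene's span. The window had a single sparse CpG, in CCGG 57 bases before that start. Its plus strand was called higher, at 13.2 points (q = 0.000177), and its minus strand stood at -1.13 (q = 0.856) in the authors' deposited table. Tfeb RNA was higher by 1.15 (SE 0.29, DESeq2 adjusted p = 0.00238) in the authors' deposited table. Over the whole Tfeb gene, chr17:47737037-47792416, 83 sparse, far cytosines had 3 lower and 2 higher calls and a mean of -1.01 points. Anxa8, a calcium-dependent membrane-binding annexin, carried 2 CCGG sites, 249 and 121 bases before the start. The farther site gave -11.2 points on the plus strand and 5.90 on the minus strand, neither called, and the nearer one 0 and 19.6 points (q = 0.0345 on the minus strand) in the authors' deposited table. Anxa8 RNA was lower, with a log2 fold change of -2.03 (SE 0.40, DESeq2 adjusted p = 2.04e-05), in the authors' deposited table. In these 3 promoters the sign of the methylation call and of the RNA call did not follow a single pattern.

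Lmcd1, a LIM-domain protein, had an ACGT site 127 bases before the start that was called higher on both strands, at 35.2 points (q = 1.02e-05) and 27.6 points (q = 0.00105) in the authors' deposited table. Its neighbouring CCGG, 139 bases before the start, stood at -6.60 and -10.9 points and was not called. Chrnb4, a subunit of the nicotinic acetylcholine receptor, had a site 177 bases before the start, CCGA on the chromosome's plus strand, called higher on that strand, at 21.5 points (q = 0.0129), with 13.7 points on the minus strand (q = 0.240), in the authors' deposited table. Its CCGG gave -3.42 points on the plus strand and a called 22.4 points on the minus strand (q = 0.000908). Asprv1, an aspartic protease of skin, had a CCGT called lower on both strands, at -23.1 points (q = 0.00095) and -15.6 points (q = 0.0440), in the authors' deposited table. Its CCGG stood at 1.19 and 5.56 points, not called. Lmcd1 was listed at a mean normalized count of 0 in RNA, and Chrnb4 and Asprv1 at 11.5 and 10.4 with no adjusted p. At the 3 CpGs outside CCGG both strands had the same sign. At the 3 CCGG sites they had the same sign in Lmcd1 and Asprv1 and opposite signs in Chrnb4.

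Promoters were a small corner of the sparse, far cytosines. Of 31396 promoter windows, 1128 windows of 1056 genes held at least 1, and the 2882 cytosines there were 0.676% of all. All 2882 fell on a C of their own strand, and 2862 of the 2869 whose CpG lay whole in the window fell on CG. CCGG held 2027 of the 2841 whose 4 letters could be read, or 71.3%. Searched as the 4 letters CCGG, which read the same on both strands, the site was present in 98.4% of windows with such a cytosine and in 53.5% of all windows. Their CpG number was close to that of other windows, with a median of 6 against 7 in all windows, and the median GC content was 53% in both. In promoter windows 74 cytosines were called lower and 49 higher, 2.57% and 1.70%, with a mean of -0.570 points, against -0.615 points outside promoter windows. Called cytosines lay in 117 windows of 114 genes. Matched by symbol alone, 15 of these genes were tested in RNA and 3 were called. Renamed genes are missing from both counts. Of all tested autosomal genes, 6.17% were higher and 4.86% lower.

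Most sparse, far cytosines were not called, and those that were called were more often lower in 14-3-3ε clones. A cytosine was called where the authors' q was under 0.05. At that threshold 12299 were lower (2.89%) and 7825 higher (1.84%), against a background over all autosomal cytosines of 2.82% lower and 1.92% higher. Called in either direction were 4.72% of the sparse, far cytosines, against 4.74% of all autosomal cytosines, so the share called was at the background. Lower calls outnumbered higher calls by 1.57 to 1, against 1.44 to 1 in all other autosomal cytosines. The mean difference was -0.615 points and the median -0.370, with quartiles of -4.57 and 3.54 and a range of -78.9 to 75.4. In all other autosomal cytosines the mean was -0.447 points.

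Against dense cores the contrast was wide. The median size of the difference was 4.08 points in sparse, far cytosines and 1.06 in 684080 core cytosines, and differences of exactly 0 made up 1.98% and 19.1%. The parts of methylation level and of coverage in this contrast were not tested. Cores had 1.70% lower and 1.26% higher calls, 1.35 lower to 1 higher, and a mean of -0.231 points. Shores, defined as cytosines under the core count with a core within 2000 bp, had a mean of -0.422 points over 408810 cytosines, with 2.92% lower and 2.08% higher. The class next to the sparse, far cytosines by rule was the 725408 cytosines with 5 to 20 listed cytosines in the window and no core within 4000 bp. It had a mean of -0.678 points and more calls, 3.78% lower and 2.48% higher, or 1.52 lower to 1 higher. Its median size of 3.60 points was close to that of the sparse, far cytosines. The 46298 sparse cytosines with a core within 4000 bp had a mean of -0.432 points, a median size of 3.89 points and 1.48 lower calls to 1 higher.

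**Figure D1:**
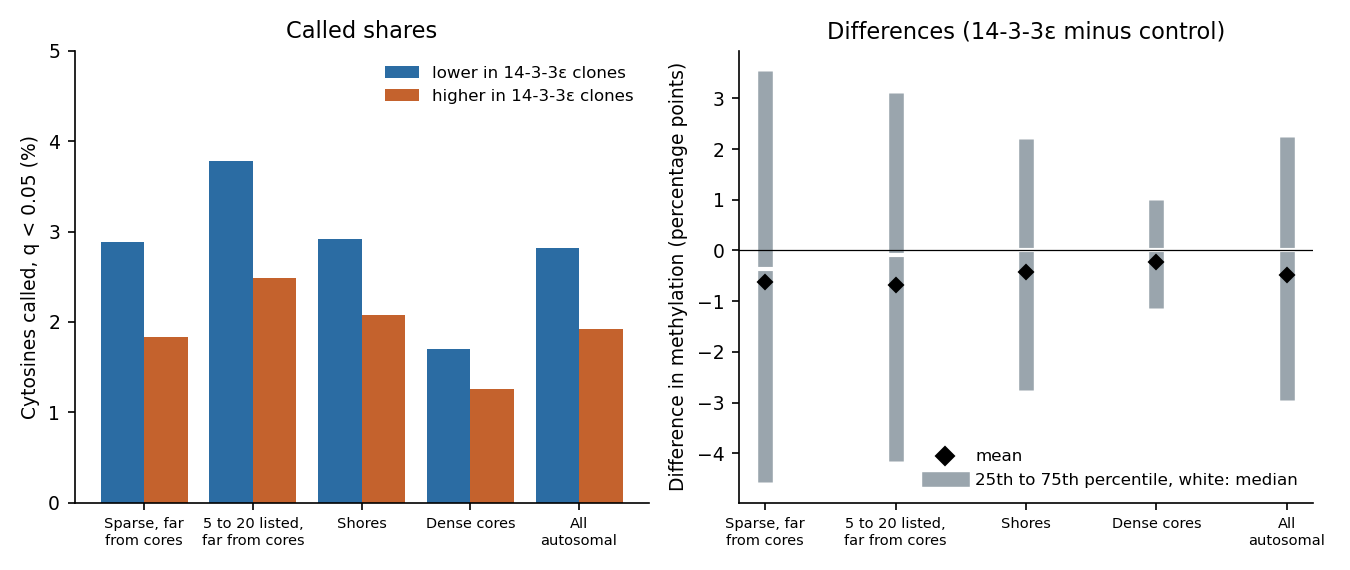
Left, bars give the share of cytosines called lower and higher in 14-3-3ε clones at q under 0.05, in percent, for sparse, far cytosines, the other classes and all autosomal cytosines. Right, grey bars give the quartiles of the difference in percentage points, white marks the median and black diamonds the mean, at -0.615 points for sparse, far cytosines and -0.231 for dense cores.

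The direction was the same on every autosome. On each of the 19 autosomes the mean of the sparse, far cytosines was below 0, below that of dense cores and below that of all other cytosines of the chromosome. It ran from -0.829 points on chromosome 16 to -0.445 points on chromosome 19. Lower calls outnumbered higher calls on all 19, but the share called in either direction was below that of the other cytosines on 10 of 19. In windows of 1 Mb with at least 50 sparse, far cytosines, 1761 of 2321 windows (75.9%) had a mean below 0. The lowest window, 77 to 78 Mb of chromosome 16, averaged -5.71 points over 133 cytosines with 11 lower and 0 higher calls. The highest, 3 to 4 Mb of chromosome 9, averaged 5.86 points over 225 cytosines with 2 lower and 12 higher calls.

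The loneliest cytosines were called least often. With 1, 2, 3 and 4 listed cytosines in the window, 2.20%, 3.98%, 3.44% and 5.61% were called, and the means were -0.490, -0.561, -0.591 and -0.667 points. Across the rule's count limit, cytosines with 4 listed had 5.61% called, those with 5 listed and far 4.88% and those with 6 listed and far 6.42%. Across its distance limit, sparse cytosines up to 1000 bp beyond 4000 bp had a mean of -0.547 points and those up to 1000 bp inside it -0.334 points. Among cytosines with q between 0.04 and 0.05 the median size was 21.1 points for those with 1 listed and 15.6 for those with 4 listed, against 12.5 in dense cores. A larger difference is needed to reach a given q where fewer reads cover a cytosine. The part of coverage in the shares called was not tested.

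The calls were not spread evenly over the strands. MspI cuts CCGG between the first C and CGG and leaves a recessed 3′ end, and end repair, which the labels' protocol includes, fills that end with nucleotides from the reaction mix. A frequent arrangement was a run of 2 CpGs 40 to 350 bp apart with all 4 cytosines listed, a spacing like that of an MspI fragment with a CpG at each end (library fragments of 150 to 400 bp were kept). There were 26955 such runs, with a median gap of 149 bp, holding 107820 cytosines or 25.3% of the sparse, far ones. In each run the plus-strand cytosine of the left CpG and the minus-strand cytosine of the right CpG sit at the 5′ ends of the stretch between them, and the other pair at the 3′ ends. Of 259 CpGs of such runs in promoter windows, 228 (88.0%) were in CCGG.

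At the 5′ ends the mean difference was -1.15 points (SD 9.54 over 53910 cytosines), and at the 3′ ends it was 0.0252 points (SD 6.52 over 53910). The 5′ ends had 2291 lower and 1336 higher calls, 4.25% and 2.48%, and the 3′ ends 426 lower and 389 higher, 0.790% and 0.722%. Both 5′ ends were close, at -1.11 points on the left CpG and -1.20 on the right, and both 3′ ends likewise, at 0.0660 and -0.0157. In these runs the lower mean was thus found at the 5′ ends and not at the 3′ ends. On all 19 autosomes the 5′ ends had the lower mean and more calls. The chromosome means ran from -1.55 to -0.880 points at 5′ ends and from -0.322 to 0.219 points at 3′ ends, with 8 of 19 below 0 at the 3′ ends. In the 228 CCGG sites of these runs whose letters could be read, 15 of 228 cytosines at 5′ ends were called, with a mean of -1.72 points, against 4 of 228 at 3′ ends, with a mean of 0.623 points. The part of end repair in these values was not tested.

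**Figure D2:**
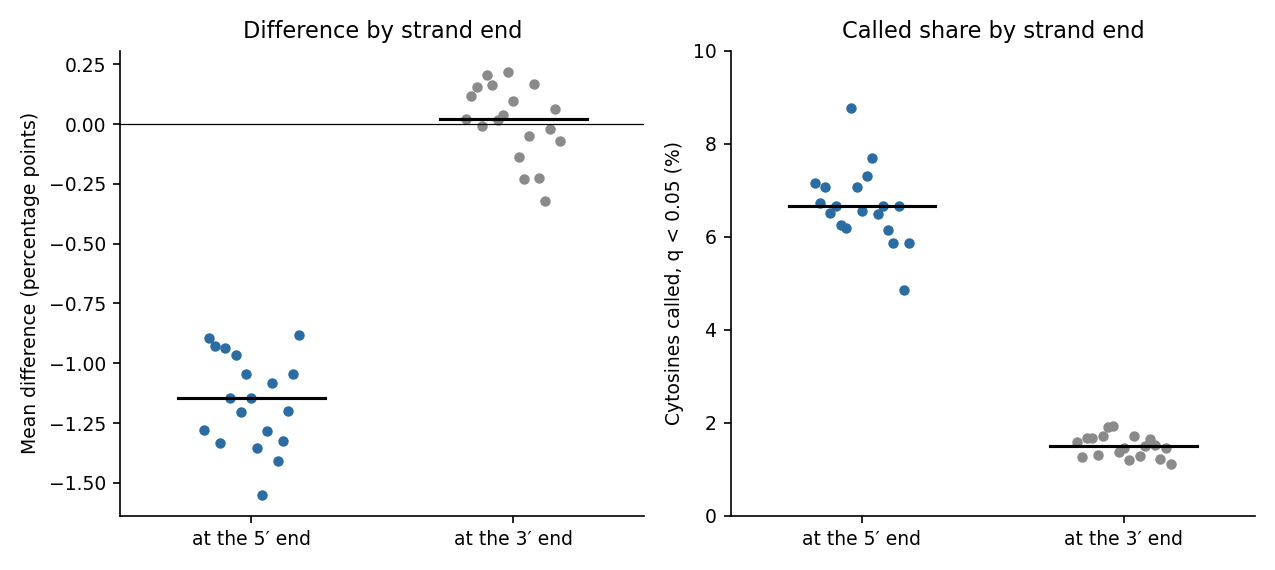
Mean difference in percentage points (left) and share called at q under 0.05 in percent (right) for the 5′-end and 3′-end cytosines of 26955 runs of 2 sparse, far CpGs, with 1 point per autosome and a line at their median. The 19 chromosome means lay between -1.55 and -0.880 points at 5′ ends and between -0.322 and 0.219 points at 3′ ends.

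The cytosines of 1 strand followed each other better than the cytosines of 1 CpG. Across the runs, Pearson's r was 0.162 between the plus-strand cytosines of the left and right CpG and 0.156 between their minus-strand cytosines. Within the left CpG it was 0.0612 and within the right CpG 0.0511, and it was 0.0191 between the 5′ ends. These are descriptions over 26955 runs of the same libraries.

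Opposite strands of a CpG normally carry the same methylation state, since Dnmt1 restores it after replication. Over 181895 sparse, far CpGs listed on both strands, r between the strands was 0.169, against 0.464 in dense cores, 0.436 in shores and 0.433 in the 5 to 20 class. Where 1 strand was called and the other was listed, the other had the same sign in 66.1% of 18281 cases and was itself called in 16.1%. In dense cores these shares were 90.4% and 40.9%. Called lower cytosines averaged -20.6 points and their opposite strand -5.52, while called higher ones averaged 21.2 and their opposite strand 5.89. Both strands were lower at 872 CpGs, both higher at 596 and called in opposite directions at 68. With 2 listed cytosines in the window r was 0.00277 over 73090 CpGs, and with 4 listed it was 0.277 over 103380 CpGs, both below the other classes.

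Sequence split the values further. In promoter windows the strands of sparse, far CpGs in CCGG had r of -0.0288 over 897 CpGs, and 35 of 70 called cases had the same sign on the other strand. Outside CCGG r was 0.463 over 292 CpGs, with the same sign in 35 of 37. The other classes gave the same split: r in CCGG was 0.0279 in dense cores, 0.0141 in shores and 0.0333 in the 5 to 20 class, against 0.497, 0.582 and 0.589 outside CCGG. The classes differed in how much of them was CCGG: 71.5% of sparse, far cytosines, against 11.2% of dense cores and 24.0% of shores. Sparse, far cytosines in CCGG averaged -0.778 points (SD 8.87 over 2026) with 3.65% called, and those outside CCGG 0.0124 points (SD 10.2 over 808) with 6.06% called.

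**Figure D3:**
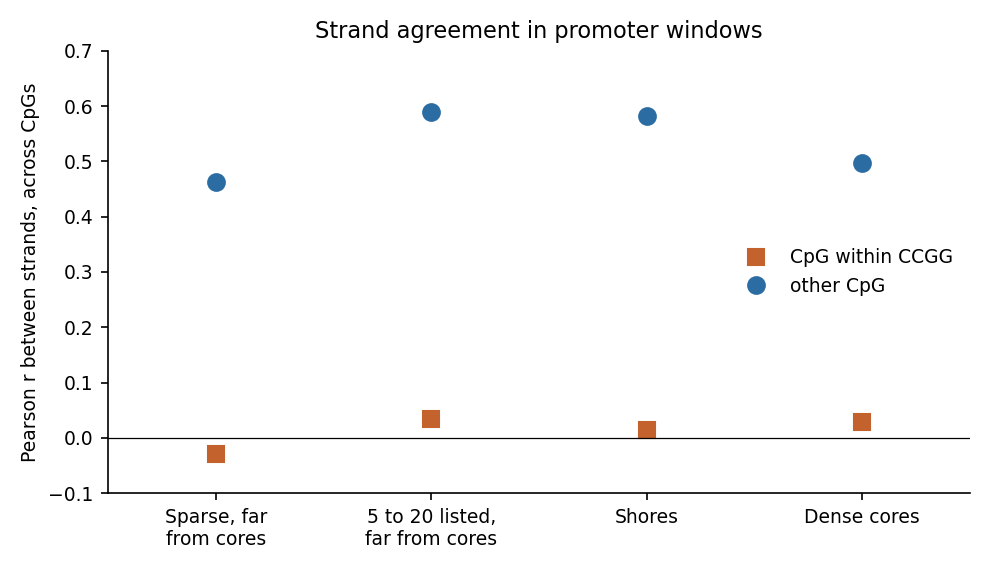
Pearson's r between the 2 strands of a CpG in promoter windows, in CCGG and outside it, for each class of cytosine. In CCGG every class lay between -0.0288 and 0.0333, and outside it between 0.463 and 0.589.

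Differences around called cytosines were smaller than those of the called cytosines and of their opposite strand. Around a called lower cytosine, other sparse, far cytosines within 50 bp averaged -3.23 points, those at 100 to 150 bp -1.43, those at 200 to 300 bp -1.33 and those at 2 to 5 kb -0.739. Around a called higher one the values, in the same order, were 1.50, 0.0905, 0.544 and -0.371 points. The overall mean was -0.615 points.

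Distance from dense cores changed the mean mainly at the far end. Over steps of 4 to 8, 8 to 16, 16 to 32, 32 to 64, 64 to 128, 128 to 256 and beyond 256 kb, the means were -0.533, -0.447, -0.481, -0.517, -0.511, -0.723 and -0.992 points. Lower calls were 2.53%, 2.64%, 2.68%, 2.80%, 2.88%, 3.19% and 3.22% in the same order. Higher calls stayed between 1.65% and 1.97%. The step beyond 128 kb had a lower mean than that up to 32 kb on 18 of 19 autosomes. At the 5′ ends of the 2-CpG runs the mean was -1.11 points at 4 to 8 kb and -1.30 beyond 256 kb, and at the 3′ ends it was 0.121 and -0.125.

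**Figure D4:**
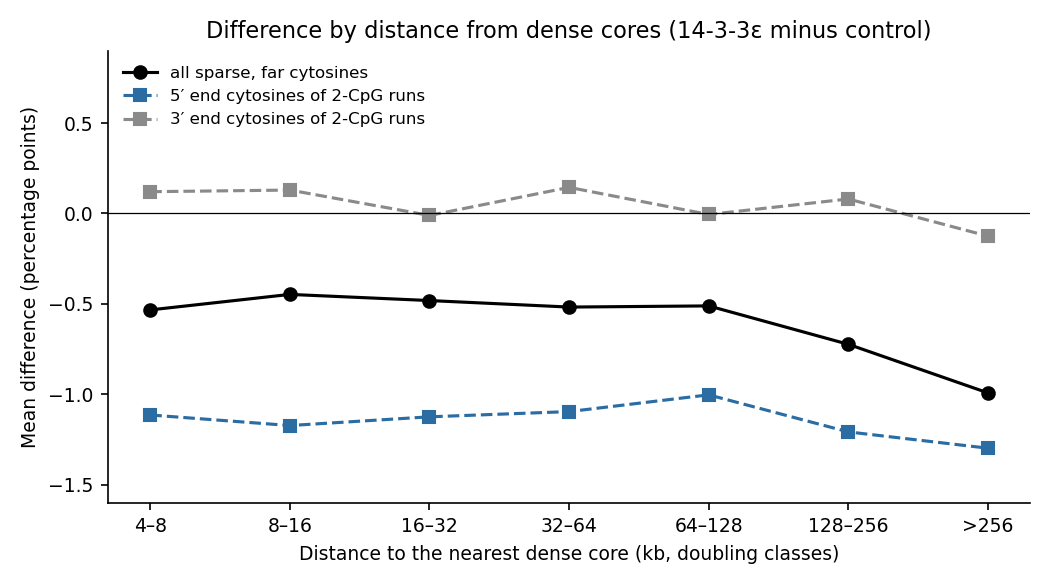
Mean difference in percentage points, 14-3-3ε minus control clones, by distance to the nearest dense core in kb, in classes that double in width. Black is all sparse, far cytosines, at -0.533 points at 4 to 8 kb and -0.992 beyond 256 kb, and the dashed lines are the 5′ ends and 3′ ends of 2-CpG runs.

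Genes held 56.1% of the sparse, far cytosines, 239220 in all, with a mean of -0.534 points. Within 5 kb of a gene the mean was -0.562 points, at 5 to 20 kb -0.635, at 20 to 50 kb -0.771, at 50 to 100 kb -0.710, at 100 to 500 kb -0.937 and beyond 500 kb -1.31 over 4799 cytosines. Beyond 500 kb lower calls outnumbered higher calls by 2.17 to 1. The distance from cores and the place in genes overlapped: beyond 256 kb from a core the means were -0.922 points inside genes and -1.02 outside, and at 32 to 64 kb -0.444 inside and -0.640 outside. At 128 to 256 kb the order turned, with -0.785 inside and -0.663 outside.

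Inside genes, the level of the host gene's RNA split the calls. Of 224731 cytosines inside exactly 1 gene, those in hosts with a mean normalized count of at most 1 had 3.59% lower and 2.19% higher calls, 5.77% in either direction, and a mean of -0.774 points. Those in hosts above 1000 had 2.51% called in either direction and a mean of -0.350 points. The steps between, from 1 to 33, 33 to 300 and 300 to 1000, had 5.87%, 4.65% and 3.09% called in either direction. Among cytosines with q between 0.04 and 0.05 the median size was 15.4 points in the silent hosts and 12.8 in those above 1000. With distance from cores the means in silent hosts were -0.572 points up to 32 kb, -0.614 at 32 to 128 kb and -1.09 beyond. In hosts above 1000 the same steps gave -0.329, -0.374 and -0.368. At the 5′ ends of 2-CpG runs lower calls made up 5.15% in hosts at up to 1 and 2.44% in hosts above 1000, while the means were -1.13 and -1.01 points. At the 3′ ends lower calls made up 1.06% and 0.490% in the same order, and higher calls 0.668% and 0.807%. The means there were -0.207 and 0.207 points.

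**Figure D5:**
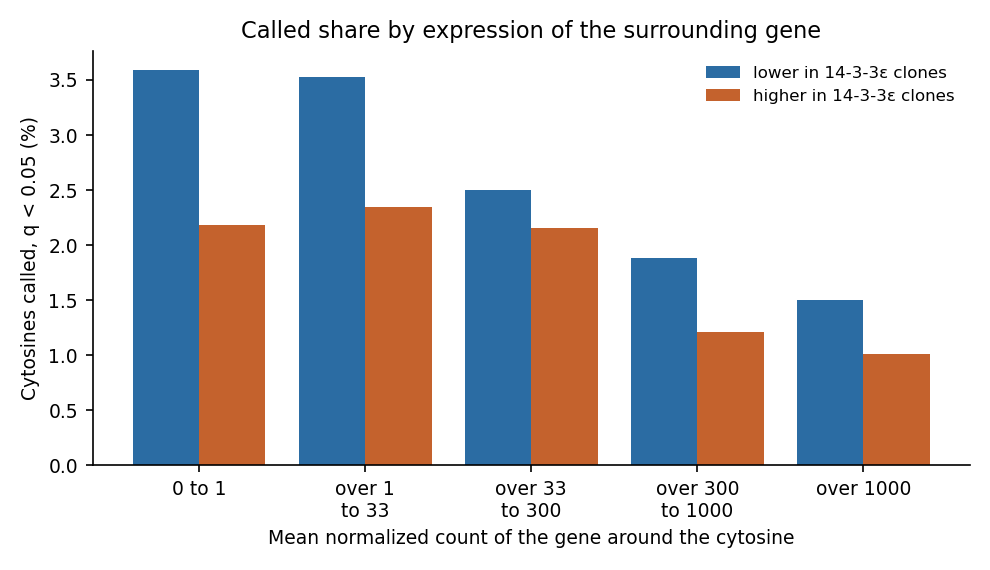
Bars give the share of sparse, far cytosines called lower and higher in 14-3-3ε clones at q under 0.05, in percent, by the mean normalized count of the gene that holds them. Both bars were highest in the 2 classes of hosts at up to 33, at 3.59% lower and 2.19% higher for hosts at up to 1.

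Genes that held a called cytosine were more often higher in RNA than other genes. Among 2072 tested genes with at least 1 called sparse, far cytosine, 187 were higher (9.03%) and 81 lower (3.91%), against 6.17% higher and 4.86% lower of 10949 tested autosomal genes. Genes with such cytosines but none called had 6.01% higher and 4.81% lower. Genes with none had 4.84% and 5.44%. These genes also differed in length, with medians of 63.9, 29.4 and 9.51 kb, and longer genes hold more cytosines. Among genes with the same number of sparse, far cytosines the gap was uneven: with 1 to 4 the shares higher were 7.80% where at least 1 was called and 5.24% where none was, with 5 to 10 they were 6.52% and 5.47%, with 11 to 20 they were 7.11% and 7.26%, with 21 to 50 10.1% and 7.01%, and above 50 11.9% and 12.1%. The part of gene length in these shares was not tested beyond this division. Cytosines in hosts called higher in RNA averaged -0.200 points, those in hosts called lower -0.399 and those in hosts not called -0.379.

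Of 106 genes called in RNA with at least 2 called cytosines, 86 were higher and 20 lower in RNA. Of all 10949 tested autosomal genes, 676 (6.17%) were higher and 532 (4.86%) lower. Of the 86, 45 had more lower than higher methylation calls and 22 the reverse, and of the 20 lower in RNA these were 13 and 6. Genes with more lower calls outnumbered those with more higher calls in both. Over all sparse, far cytosines lower calls outnumbered higher calls by 1.57 to 1. The 10 with the largest RNA change were all higher. Klf12, a transcription factor, was higher by 3.28 on the log2 scale (SE 0.30, DESeq2 adjusted p = 1.25e-25, in the authors' deposited table) and had 2 lower and 2 higher calls among 42 cytosines. Stra6, the receptor for retinol-binding protein, was higher by 2.84 (SE 0.39, DESeq2 adjusted p = 6.42e-11, in the authors' deposited table) and had 2 lower calls of 24. Frmd5 was higher by 2.57 with 2 lower and 4 higher calls of 49, and Dapk1, a death-associated protein kinase, by 2.32 with 4 lower and 2 higher of 38, in the authors' deposited table. Atp2b4, a calcium pump of the plasma membrane, was higher by 2.42 with 3 higher calls of 62, and Nid2, a basement membrane protein, by 2.19 with 2 higher calls of 22. The calls in these genes pointed both ways.

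Genes were named by their number of methylation calls, which favours long genes with many listed cytosines. They ran from 45.1 kb for Crhr1 to 1574 kb for Ctnna3. Of 1193 genes with at least 3 called cytosines, 436 had at least 3 in 4 lower and 149 at least 3 in 4 higher. Of all called sparse, far cytosines 61.1% were lower. Wwox, a long oxidoreductase gene that spans a common fragile site, had 15 lower and 4 higher calls among 416 cytosines, or 4.57% called, against 4.72% of all sparse, far cytosines. Pdzd2, a PDZ-domain protein, had 15 lower and 0 higher among 123, with a mean of -2.27 points and 12.2% called. Ptprm, a receptor tyrosine phosphatase, had 11 lower and 2 higher among 146, 8.90% called, and its RNA was lower, at -1.17 (SE 0.29, DESeq2 adjusted p = 0.00154), in the authors' deposited table. Ctnna3, an alpha-catenin of heart and testis, had 11 lower and 1 higher among 218, 5.50% called, and was listed at 0 in RNA. In the other direction, Auts2, a gene of neural development, had 12 higher and 3 lower among 220, 6.82% called, and its RNA was higher by 1.16 (SE 0.37, DESeq2 adjusted p = 0.0199) in the authors' deposited table. Pcsk2, a prohormone convertase, had 9 higher and 0 lower among 55 with a mean of 4.26 points, and Crhr1, the receptor for corticotropin-releasing hormone, 7 higher and 0 lower among 54 with a mean of 5.89 points. Etl4 had 7 higher and 2 lower calls, a mean of -1.63 points and higher RNA, at 1.32 (SE 0.35, DESeq2 adjusted p = 0.00316), in the authors' deposited table.

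The largest single-CpG differences, called on both strands, were scattered. The lowest, at chr8:27857161-27857162 of mm10, stood at -52.6 and -66.0 points in the authors' deposited table, 36700 bp from Gm39153 and 595791 bp from a core. Inside Rptor, which encodes the raptor subunit of mTORC1, a CpG at chr11:119807547-119807548 stood at -46.0 and -50.7 points, with a log2 fold change of Rptor RNA of -0.0013 and DESeq2 adjusted p = 0.998, both in the authors' deposited table. Inside Slc16a7, a monocarboxylate transporter gene listed at 0 in RNA, a CpG at chr10:125328685-125328686 stood at 75.4 and 42.8 points in the authors' deposited table. Its 6 other sparse, far cytosines within 300 bp averaged 20.5 points with 1 called. Lhx4, a LIM homeobox gene, had a CpG at 40.7 and 60.7 points, and the 2 other cytosines within 300 bp averaged 2.79. None of those 2 was called. Around Rptor's CpG the 4 others averaged 1.68 points with 1 called.

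Runs in which several cytosines moved together were few. Joined at gaps of up to 1000 bp, the cytosines made 100473 runs with a median of 4 cytosines over 151 bp. Lower calls occurred in 10454 runs, higher calls in 6805 and both in 716. Of the 66437 runs with at least 4 cytosines, only 32 had at least 4 lower calls and none higher, and 12 at least 4 higher and none lower. Inside Asic2, a proton-gated sodium channel gene listed at 0 in RNA, 6 cytosines over 154 bp averaged -22.8 points with 4 called lower. Inside Esrrb, an orphan nuclear receptor gene, a run over 276 bp had 6 sparse, far cytosines among 12 listed. Those 6 averaged -18.3 points with 4 called lower. A run 12641 bp from Apob, the apolipoprotein of low-density lipoprotein, had 9 sparse, far cytosines among 11 listed. Those 9 averaged 17.0 points with 4 called higher, and Apob RNA was higher by 2.06 (SE 0.39, DESeq2 adjusted p = 6.7e-06) in the authors' deposited table.

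Gene families grouped by the start of their symbols differed in how much of them was covered. Only 50 of 1104 olfactory receptor genes (Olfr) and 44 of 354 vomeronasal receptor genes (Vmn) held such a cytosine, with 182 and 229 cytosines. Calls were 3 lower and 5 higher in Olfr genes, 1.65% and 2.75%, and 3 lower and 6 higher in Vmn genes, 1.31% and 2.62%. In either direction 4.40% and 3.93% were called, against 4.72% of all sparse, far cytosines, and the calls are too few to read a direction. The families named here are part of those counted, and their shares stand against 2.89% lower and 1.84% higher of all sparse, far cytosines. Zinc finger genes (Zfp) held 2501 cytosines with 2.60% lower and 1.44% higher. Collagen genes (Col) held 1792 with 2.40% and 1.79%, and cadherins (Cdh) 1290 with 3.49% and 2.25%. Potassium channel genes (Kcn) held 1798 cytosines with 70 lower and 40 higher calls, 3.89% and 2.22%, and a mean of -0.766 points. Contactins (Cntn) held 624 with 28 lower and 12 higher, 4.49% and 1.92%, and a mean of -1.39 points. Adamts proteases held 709 with 37 lower and 10 higher, 5.22% and 1.41%, and a mean of -0.940 points. Calcium channel genes (Cacn) held 1206 with 34 lower and 33 higher, 2.82% and 2.74%, and a mean of 0.178 points. In the 3 Sorc genes 14 of 335 were lower and 18 higher, 4.18% and 5.37%.

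A list of genes that write, read and erase DNA methylation also held the histone methyltransferases Nsd1, Setd2, Ehmt2 and Suv39h1. Of this list 21 were tested in RNA, of which 2 were higher and 1 lower, with a median log2 fold change of -0.04. Of 11482 tested genes, 6.15% were higher and 4.74% lower, with a median of -0.0027. Hells, a chromatin remodeller needed for methylation of repeats, was called lower at -1.09 in the authors' deposited table. Tet1, which oxidises methylcytosine, at 0.74 and Zbtb4 at 0.73 were called higher there. Dnmt1 stood at -0.45 (DESeq2 adjusted p = 0.309) and Uhrf1, which brings Dnmt1 to new strands, at -0.67 (DESeq2 adjusted p = 0.194) in the authors' deposited table. The late replication and nuclear lamina list had 12 tested genes, 1 higher and 3 lower, with a median of -0.24. The linker histone gene Hist1h1c was higher at 1.92, and Rif1, which sets late replication timing, at -0.78, Hmga1 at -0.94 and Hmga2 at -1.19 were lower, in the authors' deposited table.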

How the data were processed

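RRBS and RNA-seq of 14-3-3ε and control clones were available as 1 table each of the authors' comparison. Trim Galore, Bismark, Bowtie2, methylKit, TopHat2, HTSeq and DESeq2 and the build mm10 are named without version or role, per the submitters' processing notes. Per the file headers, the authors deposited a difference score in percentage points for each cytosine, with its p-value and q-value. For each gene the authors deposited a mean signal (the mean normalized count, as DESeq2 names it), a log2 fold change with its standard error, a test score, a p-value and an adjusted p-value. The sources used here do not state coverage limits, the direction, or how methylKit combined the 2 clones of a group. Pooled reads would make q a measure of read sampling alone. No depth per sample is known, so no interval is given.

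Computed here with Python 3.11.15, pandas 2.3.3 and numpy 2.4.6: 253 duplicate lines of 2361933 were removed, the position rule was applied to chromosomes 1 to 19 and checked on simulated positions, and classes were averaged without weights. Gene spans and promoter windows came from RefSeq's GRCm38.p6, the assembly of mm10. Of 24062 RNA symbols, 20984 matched by symbol and 1263 by a synonym. For promoter windows synonyms were not used. Named CpGs were the 8 lowest and 8 highest called alike on both strands. Named genes were those with at least 3 called cytosines, 3 in 4 in 1 direction, the 8 with most calls each way, and the 10 largest RNA changes among genes with at least 2 calls. Named runs had at least 4 calls, none opposite, the 6 largest each way. Only part of each named set is printed. The members, gene lists and alternatives were chosen with earlier results of these data known. The 2-CpG runs, CCGG and promoter comparisons were added after the data were seen.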

Additional observations from a re-analysis of the deposited data

How the results depend on the processing

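No paired analysis was possible because the tables hold the authors' comparison with no value per clone, and leaving out a clone could not be run for the same reason. Lower calls outnumbered higher calls under every alternative tried. The share called lower, 2.89%, was 2.34% with at most 2 listed, 3.17% with at most 6, 2.96% with no core within 20000 bp, 1.41% at q under 0.01, 0.831% with differences of at least 25 points and 2.76% with 1 cytosine per CpG. The share called higher, 1.84%, was 1.47%, 2.07%, 1.87%, 0.877%, 0.562% and 1.75% under the same alternatives. The mean of -0.615 points was -0.554 with at most 2 listed, -0.637 with at most 6, -0.607 with no core within 2000 bp, -0.651 with none within 20000 bp and -0.606 with cores at 31 or more. The median size of 4.08 points was 4.01 with at most 6 listed, 4.17 with no core within 20000 bp and 4.22 with 1 cytosine per CpG. The last pair of alternatives was chosen after seeing the data. The 5′-end cytosines of 2-CpG runs gave 4.25% lower, 2.48% higher, a mean of -1.15 and a median size of 4.43 points. The 3′-end cytosines gave 0.790% lower, 0.722% higher, a mean of 0.0252, which reversed the sign, and a median size of 3.40 points. The cause was not tested. Among genes holding a called cytosine, the share higher in RNA of 9.03% was 10.5% with at least 2 called, 10.7% with q under 0.01 and 5.84% at adjusted p under 0.01, where all tested autosomal genes had 3.61%. The share lower of 3.91% was 2.44% with at least 2 called, 1.64% at adjusted p under 0.01, against 2.24% of all, and 6.45% at unadjusted p under 0.05, against 8.44% of all.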
